A study of Mus musculus with 4 samples.

Results

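The genes described here are 7 members of the MHC class II pathway of the mouse: Cd74 (ENSMUSG00000024610), H2-Aa (ENSMUSG00000036594), H2-Ab1 (ENSMUSG00000073421), H2-Eb1 (ENSMUSG00000060586), H2-DMa (ENSMUSG00000037649), H2-DMb1 (ENSMUSG00000079547) and Ciita (ENSMUSG00000022504). They were found by symbol, 1 row each, among the 32285 genes of 4 single-cell RNA libraries of the thyroid. The thyroids came from untreated C57BL/6 mice (C57 in the labels) at postnatal day 5, 10, 20 and 30, with 1 library per age and, by the study's methods, 10 mice pooled in each. The tissue was digested with collagenase and dispase, dead cells were depleted, and 3′ libraries were made on the 10x Genomics platform, in which each RNA molecule is counted once by its molecular identifier (UMI). The genes were selected on their levels by class and library in these same files, so what follows is a description without a test of difference. A library holds no separate animals and no age has a second library, so no spread between replicates could be given. Every interval is an exact 95% interval and covers counting error only.

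MHC class II molecules present peptides taken up from outside the cell to CD4 T cells, and they are made at high levels by dendritic cells, macrophages and B cells. An α and a β chain pair in the endoplasmic reticulum around the invariant chain Cd74, a chaperone that fills the groove and guides the complex to the endosome. H2-Aa pairs with H2-Ab1, and H2-Eb1 with an E α chain that C57BL/6 mice are known to lack. There the H2-DM dimer, made of H2-DMa and H2-DMb1, exchanges the remnant of the invariant chain for a peptide. Ciita is the transactivator that switches the whole group on, and it does so by binding to regulators already seated on short boxes, called X and Y, before the start of each gene. Thyroid follicular cells, which make thyroglobulin and thyroid hormone, are classed as non-professional cells in this respect. Their class II proteins are best known from autoimmune thyroid disease and from cultures given interferon gamma.

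On GRCm38, 5 members lie on chromosome 17 in the MHC: H2-DMa at 34119541 to 34139101, H2-DMb1 at 34153072 to 34160230, H2-Ab1 at 34257689 to 34269419, H2-Aa at 34282744 to 34287823 on the minus strand and H2-Eb1 at 34305867 to 34316674. Ciita lies on chromosome 16 at 10480059 to 10528418. The promoter table from RefSeq (GRCm38.p6, 250 bases before to 50 after each start) matched 4 of the 7 members. The stretch from 110 to 31 bases before the start is shown for an α and a β chain gene, because both hold the pair of boxes through which Ciita is known to act. It lies outside the exons annotated for each gene.
H2-Aa, chr17:34287854-34287933, minus strand: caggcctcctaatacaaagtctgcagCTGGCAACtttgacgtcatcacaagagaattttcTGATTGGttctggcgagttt
H2-Eb1, chr17:34305757-34305836, plus strand: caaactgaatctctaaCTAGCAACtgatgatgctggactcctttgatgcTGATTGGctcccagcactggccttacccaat
Capitals mark CTNGNAAC, an X-box-like run, and TGATTGG, a Y-box-like run, both searched on either strand, and their letters were chosen after these promoters had been read. CTNGNAAC began 84 bases before the start of H2-Aa, 94 before that of H2-Eb1 and 97 before that of H2-DMb1. TGATTGG followed it by 34, 33 and 34 bases in the same order. Neither run was in either promoter listed for H2-DMa, which says only that these letters are not in those windows. Over all 32851 promoters of the table, 13.2% held CTNGNAAC, 7.82% held TGATTGG and 1.07% held both.

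The libraries held 54921806 to 89039113 UMIs each, and 29578 of the 37503 cells listed by the authors passed the filters. Clusters were made without the class II genes and named from markers that did not include them, and a name given in this way is written here with the ending -like. Follicular-like cells numbered 2366, 519, 302 and 526, macrophage-like cells 1005, 850, 243 and 500, dendritic-like cells 94, 168, 42 and 62, B-like cells 249, 306, 50 and 222, and endothelial-like cells 4369, 1437, 485 and 683, in the order of the libraries labelled day 5, 10, 20 and 30. All values below follow that order. T-like cells, outside the classes just given, made up 3.95%, 3.31%, 67.1% and 26.3% of the kept cells. The libraries thus differed in make-up, and the tissue these cells came from was not tested. Median UMIs per cell differed between the libraries, from 8184.5 to 17981.5 in follicular-like cells and from 2209 to 7159 in endothelial-like cells. Thyroglobulin (Tg), the defining product of follicular cells, stood at 51105, 41487, 68878 and 35200.5 UMIs per 1000000 UMIs (CPM) in follicular-like cells and between 237 and 2532 CPM in the other 4 classes. Unlisted droplets with 10 to 100 UMIs were used as a sample of RNA floating free between cells, and they held 2045751 to 2902195 UMIs per library. Their median was 65, 34, 25 and 35 UMIs, so the samples of free RNA were not alike in depth between libraries.

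The age labels could not be taken as settled. H19, an imprinted transcript of immature tissue, stood at 60.5, 815, 124 and 2884 CPM in fibroblast-like cells, so that the library labelled day 30 held the most and that labelled day 5 the least. In the authors' cell list, the cells of the library labelled day 30 carry the group number 1, those labelled day 10 and day 20 the numbers 2 and 3, and those labelled day 5 the number 4, and the H19 level fell from number 1 to number 4. By the study's methods the most cells came from postnatal day 30. Under the filters used here the libraries kept 12956, 5652, 6150 and 4820 cells, the most in that labelled day 5 and the fewest in that labelled day 30. Tg, given above, followed neither the order of the labels nor that of the list numbers. Each library is therefore named by its label, any order with age below rests on those labels, and the ratios between the libraries labelled day 30 and day 5 are given below in both directions. The barcodes of 97.4% to 98.8% of the cells of the libraries labelled day 10, 20 and 30 also carried UMIs in each other's matrices, with a median of 8 to 12 UMIs. For pairs with the library labelled day 5 the share was 33.6% to 49.9%, with a median of 1 UMI. Between 12 and 30 cells were listed in both libraries of a pair.

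The 7 genes summed were highest in dendritic-like cells, at 65942, 53013, 54863 and 47642 CPM. B-like cells held 28806, 17516, 29532 and 12051 CPM. Macrophage-like cells held 45339, 3610, 27276 and 1006 CPM. The dendritic-like values lay above all values of the other classes, while the macrophage-like and B-like values overlapped each other. Free RNA held 2178, 1554, 1691 and 537 CPM, follicular-like cells 898, 643, 676 and 385 CPM, and endothelial-like cells 306, 82.7, 83.3 and 24.3 CPM. Within each library free RNA stood above follicular-like cells and follicular-like cells above endothelial-like cells. Across libraries the range of free RNA overlapped that of macrophage-like cells above it and that of follicular-like cells below it, and the range of endothelial-like cells lay below that of follicular-like cells.

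**Figure D1:**
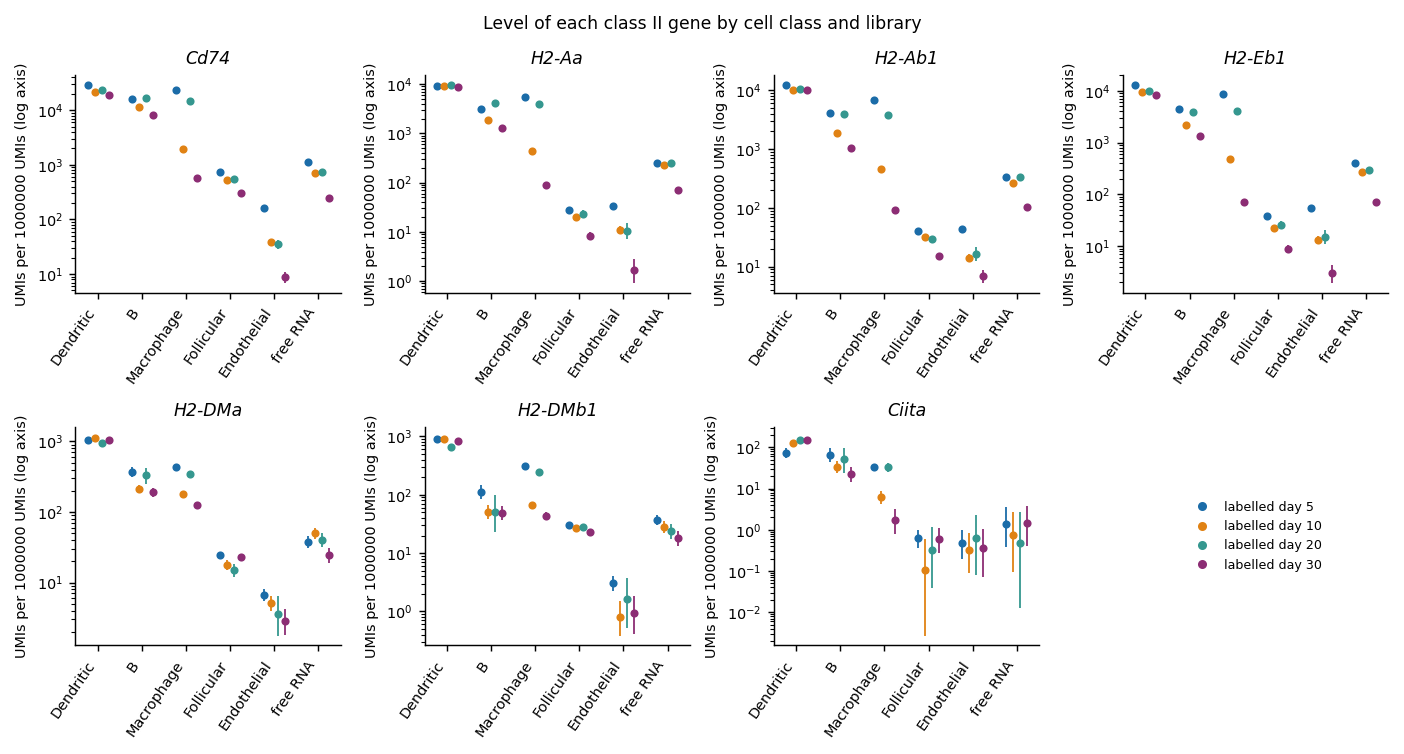
Level of each of the 7 genes (CPM, UMIs per 1000000 UMIs of the class, log axis) in 5 classes of cells and in free RNA, 1 panel per gene. Each dot is 1 library by its label and each bar its exact 95% Poisson interval. Dendritic-like cells stand highest for each gene in each library, and the macrophage-like dots spread most, from 582 to 23552 CPM for Cd74.

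Cd74, the invariant chain, stood at 735 (725 to 746), 524 (509 to 539), 555 (537 to 574) and 307 (299 to 316) CPM in follicular-like cells. Free RNA held 1121, 701, 755 and 246 CPM of it, so the follicular-like level was 0.656 (0.632 to 0.681), 0.747 (0.708 to 0.789), 0.735 (0.693 to 0.781) and 1.25 (1.15 to 1.36) of the free RNA level. It lay below free RNA in 3 libraries and above it in the library labelled day 30. Endothelial-like cells, taken for comparison and not shown to lack class II RNA of their own, held 163, 38.3, 35.2 and 8.65 CPM of Cd74. That is 0.145, 0.0546, 0.0466 and 0.0351 of the free RNA level. Most endothelial-like cells came from clusters 1, 2 and 3 (1245, 1072 and 572 of 4369 cells) in the library labelled day 5, and from cluster 14 (878 of 1437 and 489 of 683) in those labelled day 10 and day 30. The follicular-like level of the invariant chain exceeded the endothelial-like level in each of the 4 libraries, and the intervals did not meet.

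H2-Aa, the α chain, stood at 27.9, 19.8, 23.2 and 8.16 CPM in follicular-like cells and at 248, 229, 247 and 70.5 CPM in free RNA. The ratio to free RNA was 0.112 (0.101 to 0.125), 0.0865 (0.0730 to 0.102), 0.0941 (0.0778 to 0.113) and 0.116 (0.0916 to 0.146). In endothelial-like cells the ratio was 0.137, 0.0481, 0.0431 and 0.0235, so the follicular-like ratio of this chain was the lower of the pair in the library labelled day 5 and the higher in the other 3. H2-Ab1, a β chain, stood at 40.3, 32.6, 29.2 and 15.1 CPM in follicular-like cells, which was 0.120, 0.121, 0.0881 and 0.144 of the free RNA level. H2-Eb1, the other β chain, stood at 38.6, 22.6, 25.8 and 8.75 CPM, which was 0.0968, 0.0825, 0.0879 and 0.123 of it. All 12 values of the α and β chains in follicular-like cells lay at or below 0.144 of free RNA, whereas those of Cd74 began at 0.656.

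The genes of the peptide editor H2-DM stood above H2-Aa, H2-Ab1 and H2-Eb1 in their ratio to free RNA, in each library. H2-DMa was at 24.7, 17.8, 14.9 and 22.8 CPM in follicular-like cells, or 0.657 (0.536 to 0.813), 0.357 (0.282 to 0.452), 0.371 (0.273 to 0.505) and 0.935 (0.715 to 1.24) of free RNA. H2-DMb1 was at 30.6, 26.5, 27.5 and 22.7 CPM, or 0.821 (0.671 to 1.01), 0.941 (0.723 to 1.24), 1.17 (0.847 to 1.65) and 1.26 (0.929 to 1.74) of free RNA. The H2-DMb1 level thus differed from free RNA by less than counting error in each library. In endothelial-like cells H2-DMb1 was at 3.08, 0.805, 1.61 and 0.948 CPM, that is 0.0828, 0.0286, 0.0688 and 0.0527 of free RNA. H2-DMb1 and its neighbour H2-DMb2 are near-identical in sequence, and the counting could have split or moved reads between them, so the H2-DMb1 level is uncertain to that extent.

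Ciita, the transactivator, was close to the limit of detection outside the professional classes. Follicular-like cells held 16, 1, 2 and 9 UMIs of it, which is 0.626, 0.108, 0.316 and 0.588 CPM, and free RNA held 4, 2, 1 and 4 UMIs. The ratio to free RNA spanned 1 in all 4 libraries, so a difference between them was not detectable at this depth. Dendritic-like cells held 48, 252, 100 and 144 UMIs, or 72.7, 131, 148 and 153 CPM. B-like cells held 65.8, 34.0, 51.2 and 22.5 CPM and macrophage-like cells 32.8, 6.17, 32.8 and 1.70 CPM.

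Counted over the 7 members and 4 libraries, the follicular-like level lay below free RNA in 25 of 28 cases. Over all genes with at least 10 CPM in either, 12.2% lay below free RNA in every library, and 19.3%, 14.3%, 27.4% and 15.6% in single libraries. Endothelial-like cells lay below free RNA in 27 of 28 cases, against 16.6% of all such genes in every library and 29.8%, 15.9%, 30.8% and 23.2% in single ones. The exceptions were Cd74 in the library labelled day 30 and H2-DMb1 in those labelled day 20 and 30 for follicular-like cells, and Ciita in the library labelled day 20, with 2 UMIs, for endothelial-like cells. Ciita lay under 10 CPM in both classes and in free RNA, so it is in these counts but not in the shares. Its interval took in 1 in each library in both classes. In follicular-like cells so did those of H2-DMb1 in the libraries labelled day 5 and 10 and of H2-DMa in that labelled day 30.

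**Figure D2:**
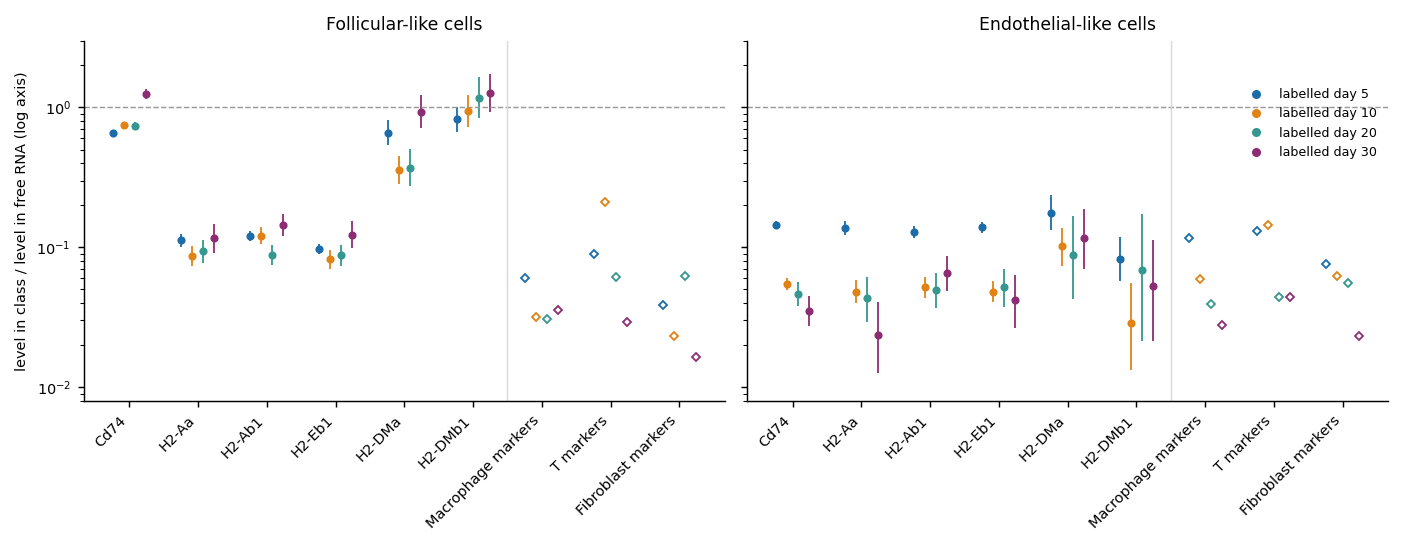
Level of 6 members in follicular-like and endothelial-like cells, divided by their level in free RNA of the same library (log axis, dashed line at 1), with exact 95% intervals. Open diamonds give the same ratio for the summed marker genes of macrophage, T and fibroblast cells. B markers are drawn in neither panel, because Ebf1 gave 95.9% to 99.5% of their UMIs in endothelial-like cells. In follicular-like cells their ratio was 0.314, 0.185, 0.204 and 0.129, in the order of the labels. In follicular-like cells Cd74, H2-DMa and H2-DMb1 stand between 0.357 and 1.26 and the 3 chains between 0.0825 and 0.144, while in endothelial-like cells all 6 stand between 0.0235 and 0.177. Ciita is not drawn because of its few UMIs.

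Markers of other cells were measured in follicular-like cells in the same way. For the 8 macrophage markers the median ratio to free RNA was 0.0521, 0.0237, 0.0217 and 0.0287. The highest ratio of a single macrophage marker was 0.467, and the 8 summed to 49.5, 46.9, 38.4 and 34.8 CPM, or 0.0604, 0.0319, 0.0309 and 0.0355 of their sum in free RNA. The 10 T markers summed to 0.0891, 0.212, 0.0611 and 0.0291 of theirs. The 8 B markers summed to 0.314, 0.185, 0.204 and 0.129 of theirs, with 51.7% of those UMIs from Igkc in the library labelled day 5 and 50.1%, 57.4% and 74.03% from Cd79b in the other 3. The 3 chains thus stood above the macrophage ratio in each library, above the T ratio except in the library labelled day 10, and below the B ratio except for H2-Ab1 in the library labelled day 30. Cd74, H2-DMa and H2-DMb1 stood above all 3 in each library. The 10 dendritic markers summed to 11.6, 18.8, 17.2 and 19.1 CPM in follicular-like cells, against 61.0, 83.4, 63.1 and 63.4 CPM in free RNA. In each library their part of free RNA was larger than that of each chain. It was smaller than that of Cd74, H2-DMa and H2-DMb1. Of the 8 leukocyte genes Ptprc, Laptm5, Coro1a, Tyrobp, Fcer1g, Cd52, Lyz2 and Cd79a, all 8 lay below free RNA in each library in follicular-like and in endothelial-like cells. What share of the chain UMIs in follicular-like cells came from free RNA was not tested.

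The make-up of the class II UMIs differed between classes in the same way. Cd74 gave 81.9%, 81.4%, 82.1% and 79.7% of the UMIs of the 7 genes in follicular-like cells, against 51.5%, 45.1%, 44.7% and 45.9% in free RNA and 53.3%, 46.3%, 42.2% and 35.6% in endothelial-like cells. In dendritic-like cells its share was 44.4%, 41.4%, 42.1% and 39.2%, in B-like cells 57.0%, 64.7%, 57.7% and 67.6%, and in macrophage-like cells 52.0%, 54.7%, 53.9% and 57.8%. None of these 3 classes of leukocytes reached the follicular-like share. These are shares of 3′ UMIs and not of protein.

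Per UMI of an α or β chain (H2-Aa, H2-Ab1 and H2-Eb1 summed), follicular-like cells held 6.89 (6.61 to 7.17), 6.98 (6.45 to 7.57), 7.10 (6.46 to 7.81) and 9.59 (8.74 to 10.5) UMIs of Cd74. Free RNA held 1.14 (1.09 to 1.20), 0.907 (0.851 to 0.966), 0.866 (0.808 to 0.928) and 1.00 (0.896 to 1.12). Dendritic-like cells held 0.844, 0.760, 0.770 and 0.694, and endothelial-like cells 1.23, 1.00, 0.832 and 0.753. The endothelial-like values stood near those of free RNA, and the follicular-like values stood apart from both. B-like cells held 1.39, 1.92, 1.41 and 2.23 and macrophage-like cells 1.12, 1.43, 1.23 and 2.31. C cell-like cells, named for the calcitonin-making endocrine cells of the thyroid, held 3.60, 2.31, 1.87 and 5.40, below the follicular-like cells in each library. The value of 5.40 rests on 15 chain UMIs, and its interval (3.09 to 10.1) met that of the follicular-like cells. In the library labelled day 30, monocyte-like cells reached 23.4 (12.5 to 49.4) and neutrophil-like cells 12.0 (1.78 to 513), above the follicular-like value, with few chain UMIs behind them (10 and 1).

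UMIs of H2-DMa and H2-DMb1 together, per chain UMI, came to 0.517, 0.591, 0.541 and 1.42 in follicular-like cells. The same ratio was 0.0762, 0.101, 0.0729 and 0.172 in free RNA and 0.0562, 0.0699, 0.0540 and 0.0698 in dendritic-like cells. In macrophage-like cells it moved with the library, at 0.0350, 0.177, 0.0490 and 0.679. Follicular-like cells thus held more H2-DM per chain than dendritic-like cells in each library. They were not the highest of all classes with at least 20 cells. Above them stood nerve-like cells (0.750) in the library labelled day 5, neutrophil-like cells (0.6) in that labelled day 10, T-like (0.609) and nerve-like cells (1.00) in that labelled day 20, and T-like (1.65), C cell-like (1.53), stromal-like (1.5) and monocyte-like cells (12.6) in that labelled day 30. Of these, the monocyte-like value alone, at 6.63 to 26.9, had an interval apart from that of follicular-like cells.

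**Figure D3:**
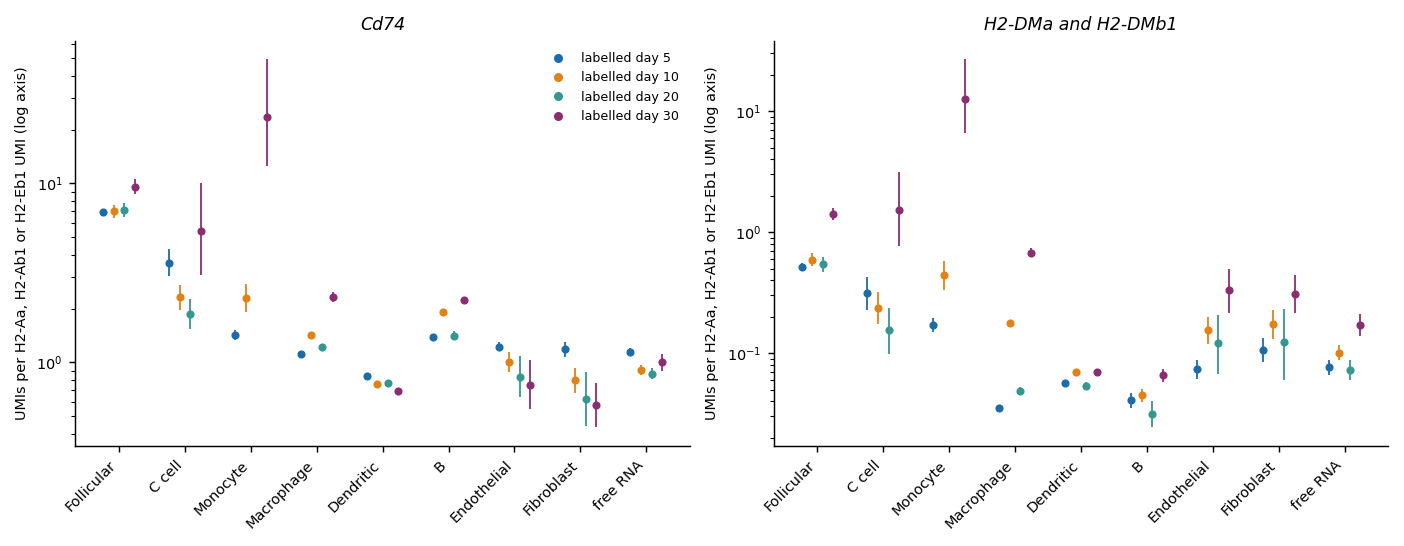
UMIs of Cd74 (first panel) and of H2-DMa plus H2-DMb1 (second panel) per UMI of H2-Aa, H2-Ab1 and H2-Eb1 together, on log axes, in 8 classes of cells and in free RNA, with 1 dot per library and 95% intervals. Follicular-like cells stand at 6.89 to 9.59 Cd74 UMIs per chain UMI, against 0.866 to 1.14 in free RNA.

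Cd74 per chain UMI was higher than in free RNA of the same library in each of the 5 follicular-like clusters, wherever a cluster had at least 20 cells of the library. It ranged from 2.43 UMIs of Cd74 per chain UMI, in cluster 41 of the library labelled day 10, to 14.8, in cluster 7 of the library labelled day 20. The clusters differed in their share of each library. Clusters 7 and 8, with Folr1 and Tspan1 among their 10 leading genes, held 1226 and 1074 of the 2366 follicular-like cells in the library labelled day 5, and clusters 20 and 22, with Prlr and Krt8 among theirs, held most in the other 3. In cluster 8, present in all 4 libraries, Cd74 stood at 732, 706, 624 and 264 CPM. In cluster 20 it stood at 687, 455, 536 and 342 CPM. Within both clusters the library labelled day 5 was highest and that labelled day 30 lowest.

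A look at single follicular-like cells gave the same contrast. Cd74 was seen in 86.0%, 84.97%, 88.1% and 79.3% of them, and H2-Aa in 15.05%, 19.3%, 18.2% and 12.0%. After thinning each cell to 1000 UMIs, which left out 5, 3, 2 and 3 shallower cells, the shares with Cd74 were 44.3% (42.3% to 46.4%), 33.5% (29.5% to 37.8%), 41.7% (36.0% to 47.5%) and 21.2% (17.8% to 25.0%). In thinned endothelial-like cells (515, 65, 35 and 28 left out) the share with Cd74 was 7.91% (7.08% to 8.81%), 2.41% (1.66% to 3.36%), 9 of 450 cells (0.919% to 3.76%) and 1.53% (0.734% to 2.79%), from 14.99%, 13.4%, 11.5% and 7.03% before thinning. The thinned shares with H2-Aa were 2.08%, 1.55%, 2.67% and 0.765% in follicular-like and 2.52%, 1.24%, 0.889% and 0.763% in endothelial-like cells. The β chains gave 3.77%, 3.49% (2.08% to 5.46%), 6 of 300 cells and 1.72% for H2-Ab1 and 3.01%, 1.16%, 3.33% and 0.574% for H2-Eb1 in follicular-like cells, against 2.80%, 1.09% (0.613% to 1.80%), 1.33% and 0.611%, and 3.503%, 1.09%, 2.22% and 0 of 655 cells (exact upper limit 0.562%), in endothelial-like cells. At equal depth, the intervals for the 3 chains overlapped between both classes except for H2-Ab1 in the library labelled day 10, whereas the invariant chain was seen in a larger share of follicular-like cells in each library. H2-DMb1 was seen in 2.80%, 2.33%, 2.33% and 2.49% of thinned follicular-like cells, and in 9 of 3854, 0 of 1372, 1 of 450 and 0 of 655 thinned endothelial-like cells, where the exact upper limits of the 2 counts of 0 are 0.269% and 0.562% (0.219% and 0.458% if taken as 3 counts of the total).

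Cells with Cd74 and no UMI of H2-Aa, H2-Ab1 or H2-Eb1 made up 54.7%, 45.3%, 47.7% and 47.0% of follicular-like cells. Depth limits the detection of the chains in such cells. Among the 682, 165, 124 and 156 follicular-like cells with 10 or more Cd74 UMIs, 257, 47, 44 and 51 had no chain UMI, which is 37.7%, 28.5%, 35.5% and 32.7%. The highest Cd74 count of a follicular-like cell was 87, 120, 104 and 122 UMIs. Counts were unevenly spread: the cells with 10 or more UMIs of the 7 genes held 76.6%, 80.3%, 85.6% and 82.0% of all class II UMIs of the class, and these cells were also deeper, with medians of 13406 to 43617 UMIs.

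The members were also compared between follicular-like cells with and without leukocyte RNA. Cells with a leukocyte UMI were deeper, with medians of 10126.5, 18837.5, 25067 and 40558 UMIs against 7925.5, 10967, 12815 and 14081, and the part of depth was not tested. In the 1904, 343, 189 and 355 follicular-like cells without a UMI of the 8 leukocyte genes, Cd74 stood at 655, 515, 565 and 315 CPM. In those with at least 1 such UMI it stood at 993, 534, 546 and 300 CPM, and the intervals met except in the library labelled day 5. H2-Aa stood at 14.2, 15.9, 11.9 and 7.21 CPM without and at 72.2, 24.4, 34.2 and 9.10 CPM with a leukocyte UMI, with intervals that did not meet except in the library labelled day 30. H2-Eb1 stood at 16.3, 19.9, 11.3 and 6.30 CPM without and at 110, 25.8, 39.8 and 11.2 CPM with them, and the intervals met in the library labelled day 10 alone. H2-DMb1 stood at 30.9, 28.8, 25.1 and 22.0 CPM without and at 29.6, 23.9, 29.9 and 23.3 CPM with them, and the intervals met in each library. The part of doublets or of leukocyte RNA in these levels was not tested beyond these values.

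**Figure D4:**
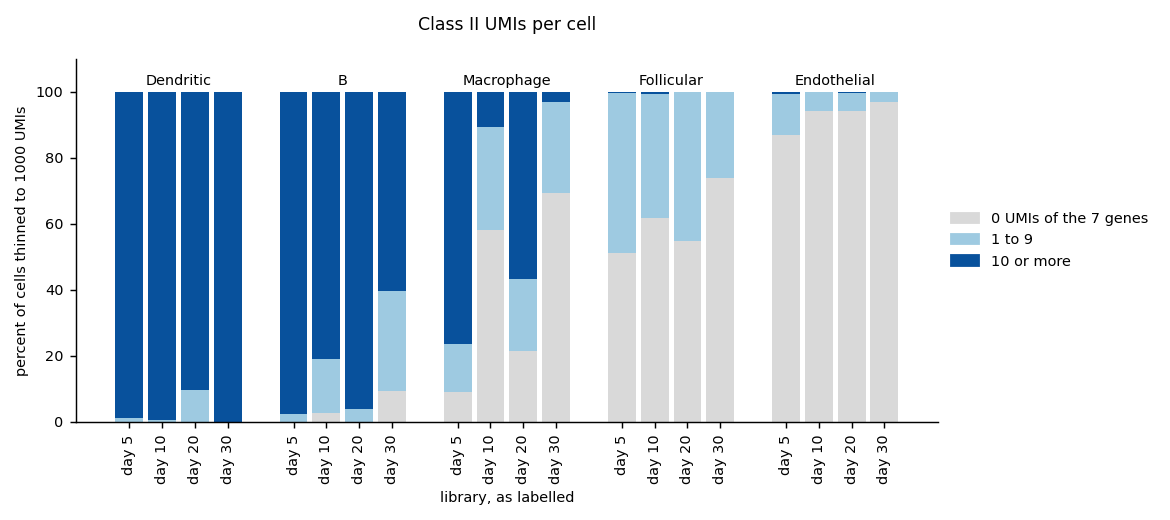
Share of cells (%) with 0, with 1 to 9 and with 10 or more UMIs of the 7 genes after each cell was thinned to 1000 UMIs, by class and library. Cells with 10 or more made up 0 to 0.775% of follicular-like cells and 90.2% to 100% of dendritic-like cells, and between 3.12% and 76.5% of macrophage-like cells. The counts of 0 of 300 and 0 of 523 follicular-like cells (labelled day 20 and day 30) have exact upper limits of 1.22% and 0.703% (1% and 0.574% if taken as 3 counts of the total).

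Among the professional classes, the dendritic-like level exceeded the macrophage-like level for all 7 members in all 4 libraries, 28 of 28 cases. Over all genes with at least 10 CPM in either class, 19.2% did so in every library, and 40.8%, 35.4%, 43.1% and 36.9% in single libraries. Cd74 stood at 29255, 21957, 23100 and 18687 CPM in dendritic-like cells and at 23552, 1973, 14692 and 582 CPM in macrophage-like cells. H2-Aa stood at 9285, 9221, 9577 and 8624 CPM in the former and at 5447, 437, 3998 and 87.4 CPM in the latter. The α chain thus kept within a narrow range in dendritic-like cells, while in macrophage-like cells it was low in the libraries labelled day 10 and day 30. H2-DMa stood at 1039, 1116, 950 and 1037 CPM in dendritic-like and at 429, 178, 346 and 127 CPM in macrophage-like cells. H2-DMb1 stood at 910, 905, 669 and 843 CPM in dendritic-like and at 307, 67.0, 241 and 43.7 CPM in macrophage-like cells. The size of the dendritic-like class depended on the clustering. It held 94, 168, 42 and 62 cells here and 228, 238, 73 and 70 at cluster resolution 0.9. These are levels of whole classes, and the ranking did not hold for each macrophage-like cluster. In cluster 9, described below, Cd74 stood at 32200, 9772, 29528 and 4337 CPM. That lay above the dendritic-like level in the libraries labelled day 5 and day 20 and below it in the other libraries.

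The B-like level exceeded the macrophage-like level in 18 of 28 cases, with 23.9% of all such genes above it in every library and 51.5%, 43.5%, 44.6% and 42.1% in single ones. Under the other settings tried the count of 18 ran from 14 to 21. In the libraries labelled day 10 and day 30 Cd74, H2-Aa, H2-Ab1, H2-Eb1, H2-DMa and Ciita were higher in B-like cells. H2-Ab1 stood at 4121, 1884, 4025 and 1043 CPM in B-like cells and at 6942, 464, 3834 and 93.1 CPM in macrophage-like cells. H2-Eb1 stood at 4529, 2146, 3979 and 1319 CPM in B-like cells and at 8629, 483, 4132 and 71.0 CPM in macrophage-like cells. Both β chains were higher in macrophage-like cells where the label was day 5 and higher in B-like cells where it was day 10 or day 30. H2-DMb1 was low in B-like cells, at 112, 51.5, 51.2 and 49.6 CPM, while its paralog H2-DMb2 stood at 452, 172, 398 and 182 CPM there and at 71.2, 35.7, 60.8 and 42.4 CPM in dendritic-like cells.

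Among the 5 classes compared, macrophage-like cells were the class whose class II level moved most between libraries. The summed level in the library labelled day 30 was 0.0222 (0.0216 to 0.0228) of that in the library labelled day 5. The ratio was lowest for the chains, at 0.0161 for H2-Aa, 0.0134 for H2-Ab1 and 0.00822 for H2-Eb1, and was 0.0247 for Cd74, 0.0519 for Ciita, 0.142 for H2-DMb1 and 0.296 for H2-DMa. Turned, as the library labelled day 5 over that labelled day 30, these read 62.3, 74.5 and 122 for the chains, 40.5 for Cd74, 19.3 for Ciita, 7.03 for H2-DMb1 and 3.38 for H2-DMa. The editor genes thus moved less than the chains and the invariant chain. The libraries did not follow the order of their labels, since the values labelled day 5 and day 20 were high and those labelled day 10 and day 30 low. They did follow the order of the list numbers. From number 1 to number 4 (labelled day 30, 10, 20 and 5) the summed level rose, at 1006, 3610, 27276 and 45339 CPM.

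The clusters that make up the macrophage-like class differed in their class II level and in their number in each library. Cluster 33, led by Pf4, Mrc1 and Folr2, markers of resident macrophages, held 157, 349, 48 and 227 cells and stood at 6807, 722, 2307 and 228 CPM of the 7 genes. Cluster 9, led by the chemokines Ccl4 and Cxcl2, held 637, 115, 112 and 32 cells and stood at 61952, 17467, 54741 and 7338 CPM. Cluster 32, with Cx3cr1 among its leading genes, stood at 20161, 2023, 8584 and 1039 CPM. The shallow cluster 19, with a median of 902.5 UMIs per cell, gave 74096, 20162, 56956 and 4014 CPM. The order of the libraries was the same in these 4 clusters, with that labelled day 5 highest, then day 20, day 10 and day 30. This is the order of the list numbers from 4 down to 1. Cluster 9 also held more of the macrophage-like cells where the level was high, with 637 of 1005 and 112 of 243 in the libraries labelled day 5 and day 20 against 115 of 850 and 32 of 500 in the other 2. Macrophage markers were level across the libraries, with all 8 detected and summing to 21800, 22836, 21728 and 20977 CPM in the class. Dendritic markers moved with the class II genes: their summed level in macrophage-like cells was 252, 81.7, 241 and 79.7 CPM, with 10, 10, 10 and 8 of 10 detected, and Clec9a and Ccl22 at 0 in the library labelled day 30. In dendritic-like cells the same sum was 2151, 1911, 2471 and 2060 CPM. B markers in macrophage-like cells summed to 303, 351, 308 and 367 CPM, and did not follow the class II genes. The part of dendritic cells in the macrophage-like levels was not tested.

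**Figure D5:**
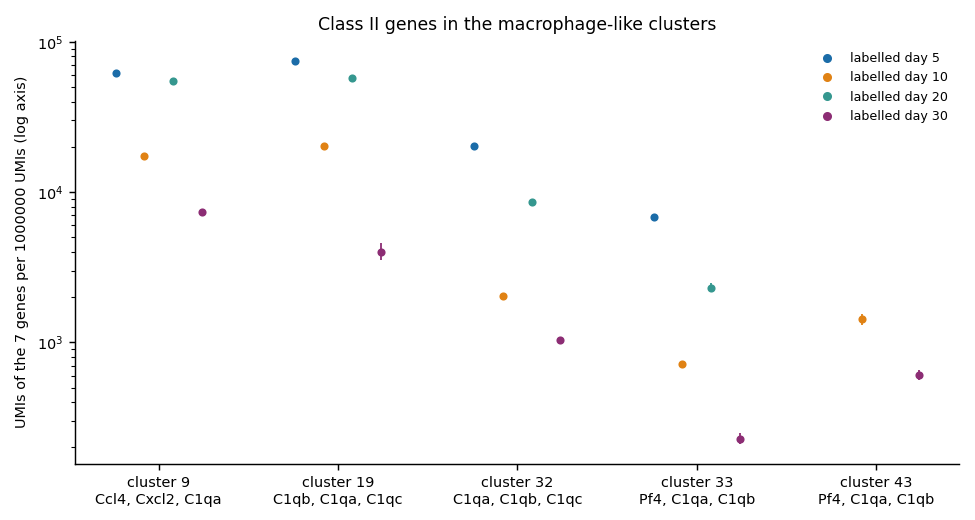
Summed level of the 7 genes (CPM, log axis) in each macrophage-like cluster with at least 20 cells of a library, with 1 dot per library and 95% Poisson intervals. Cluster 9 stands highest among the deeper clusters and cluster 33 lowest in each library, and the library labelled day 30 is lowest within each cluster.

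Comparing the libraries labelled day 30 and day 5 across the 7 members and 5 classes, 1 of 35 levels was higher in the former with an interval above 1. Lower, with an interval below 1, were 7 of 7 members in macrophage-like and in B-like cells, 6 in endothelial-like, 5 in follicular-like and 4 in dendritic-like cells, and the others differed by less than counting error. The 1 higher level was that of Ciita in dendritic-like cells, at 2.10 (1.505 to 2.98) times the level in the library labelled day 5, or turned 0.476 (0.336 to 0.665). Its interval took in 1 with at most 10000 UMIs per cell (1.32, 0.418 to 3.18), with that limit and integration (1.12, 0.299 to 2.96) and with cells thinned to 1000 UMIs (1.60, 0.427 to 5.97), settings that left 5, 4 and 6 UMIs of it in the library labelled day 30. Over all genes with at least 10 CPM in either library, 17.0% were higher in this sense in dendritic-like cells, 58.2% in follicular-like, 51.1% in macrophage-like, 13.3% in B-like and 41.0% in endothelial-like cells. The share of genes lower in the same sense was 8.45%, 19.5%, 14.8%, 10.3% and 25.3%. For the summed members the ratio was 0.722 in dendritic-like, 0.429 in follicular-like, 0.418 in B-like, 0.0795 in endothelial-like and 0.0222 in macrophage-like cells, and free RNA differed in the same direction, at 537 against 2178 CPM. Turned, as the library labelled day 5 over that labelled day 30, the same ratios read 1.38, 2.33, 2.39, 12.6 and 45.1, with 29 of 35 levels higher and 1 lower. In follicular-like cells Cd74 stood at 0.418 (0.405 to 0.432) and H2-Eb1 at 0.227 (0.188 to 0.272) of the level labelled day 5, whereas H2-DMa, at 0.923 (0.808 to 1.05), differed by less than counting error. Turned, these 3 read 2.39 (2.32 to 2.47), 4.41 (3.68 to 5.32) and 1.08 (0.949 to 1.24). Setting day 20 against day 10 by label gave another picture, with 16 of 35 levels higher and 2 lower in the former. The higher ones were all 7 members in macrophage-like cells, 5 in B-like, 3 in dendritic-like, 1 in follicular-like and 0 in endothelial-like cells, where 13.2%, 4.22%, 11.0%, 16.2% and 20.8% of all genes were higher in the same sense. Both lower ones were in dendritic-like cells, H2-DMa at 0.851 (0.778 to 0.930) and H2-DMb1 at 0.739 (0.665 to 0.820), and the share of all genes lower was 20.2%, 4.65%, 7.32%, 28.5% and 20.8% in the same order of classes. With 1 library per label, age, animal pool and library cannot be told apart.

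Other genes of the pathway were taken from a list of 19. In follicular-like cells 7 of them lay below free RNA in each library (H2-Oa, H2-Ob, Ctss, Lgmn, March1, Cd83 and Cd86) and 4 above (Rfx5, Nfyc, Creb1 and Cd40). Over all genes with at least 10 CPM in either, 12.2% lay below and 63.2% above free RNA in every library in follicular-like cells. In endothelial-like cells 57.2% lay above it in every library. H2-Ob, a chain of the H2-O inhibitor of H2-DM, stood at 640, 320, 438 and 224 CPM in B-like cells and had at most 6 UMIs per library in follicular-like cells. Ctss, the protease that trims the invariant chain, stood at 2469, 1339, 2442 and 978 CPM in macrophage-like and at 8.49, 4.85, 4.74 and 3.92 CPM in follicular-like cells, below the 99.2, 94.1, 93.9 and 52.1 CPM of free RNA. Ifi30, the lysosomal thiol reductase that unfolds antigen, stood at 73.3, 82.7, 54.2 and 92.2 CPM in follicular-like cells and at 60.0, 67.8, 56.7 and 73.9 CPM in free RNA. Cd40, a receptor for help from T cells, stood at 22.0, 17.1, 43.3 and 13.3 CPM in follicular-like cells and at 12.7, 7.62, 13.2 and 6.75 CPM in free RNA. Rfx5, a subunit of the factor that binds the X box, stood at 7.55, 11.1, 15.97 and 11.1 CPM in follicular-like cells, and the other 4 classes ranged from 3.77 to 9.60 CPM. Cd83 and Cd86, surface proteins of activated antigen-presenting cells, did not exceed 2.53 CPM in follicular-like cells. Between dendritic-like and macrophage-like cells 6 of the 19 were higher in the former in each library (H2-DMb2, H2-Oa, H2-Ob, H2-Eb2, Cd80 and Cd83), and Ctss and Lgmn were lower. Of all genes, 19.2% were higher and 38.6% lower in every library.

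Genes of the class I pathway and of the response to interferon gamma, the cytokine known to induce Ciita outside the professional classes, are given beside the members. Of 9 class I genes, 4 lay below free RNA in each library in follicular-like cells (B2m, Psmb8, Psmb9 and Nlrc5) and 2 above (H2-K1 and Tapbp), against 12.2% and 63.2% of all genes, while all 9 lay above it in endothelial-like cells, where 57.2% of all genes did so. H2-K1, a class I heavy chain, stood at 693, 581, 702 and 457 CPM in follicular-like and at 1750, 687, 1601 and 700 CPM in endothelial-like cells. Being above free RNA was thus the more common case for a gene in endothelial-like cells, and the class II members were on the other side of it in 27 of 28 cases. Of 10 interferon gamma genes, 4 lay below free RNA in follicular-like cells (Ifng, Ifngr1, Gbp2 and Cxcl9) and 2 above (Jak2 and Iigp1), against the same 12.2% and 63.2%. Iigp1, a GTPase induced by interferon, stood at 137, 223, 182 and 241 CPM in follicular-like cells and at 404, 251, 771 and 170 CPM in endothelial-like cells. Ifng itself did not exceed 28.5 CPM in any of the 5 classes.

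The genes whose level was most like that of the summed members were ranked by Pearson's r of log2(CPM + 1) over 59 pairs of a class and a library with at least 20 cells, in 16 classes. The pairs share libraries and free RNA, so the r is a description. Leaving out the members, the most alike were Cd180 (0.846), Cd83 (0.843), Rnase6 (0.837), H2-DMb2 (0.836), Dnase1l3 (0.833), A530040E14Rik (0.815), Ly86 (0.815), Cd86 (0.805), H2-Ob (0.798) and Rasgef1b (0.798). A member is part of the sum, and Cd74 a large part of it, so each member was set against the sum of the other 6, which gave 0.893 for H2-DMa at the lowest and 0.960 for H2-Aa at the highest, with 0.952 for Cd74.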

How the data were processed

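The deposited files hold raw UMI counts per gene and droplet, made by the authors with CellRanger on mm10, with 4 unfiltered matrices and the authors' list of cell barcodes, of which no other column was used. The submitters' notes name Seurat 3.1.4 and 3.6.3. Members and gene lists were chosen with earlier results of these data known.

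Listed cells were kept with at least 200 UMIs, at most 10% mitochondrial and at most 5% hemoglobin UMIs. Scrublet's automatic threshold marked 1200, 2, 0 and 1 cells, so the top 6% by score were removed from each library (827, 361, 393 and 308 cells). The study's limit of 10000 UMIs, under which 23114 cells remained, was an alternative, because it removes many follicular cells. Cells were clustered (scanpy 1.11.5, leidenalg 0.10.2; 3000 variable genes without class II genes, 30 principal components, 15 neighbours, resolution 2.0) and named from fixed markers. Python 3.11.15, numpy 2.4.6, scipy 1.17.1 and, for the integrated alternative, Seurat 5.3.0 were used. CPM is UMIs summed over a class, per 1000000. Free RNA is 46031 to 70827 unlisted droplets per library with 10 to 100 UMIs. Levels carry exact Poisson intervals, shares Clopper-Pearson intervals and ratios conditional binomial intervals. PCR copies are removed by the UMIs, and the 3′ counts do not allow levels to be compared between genes. No test was run. The ratio interval was tried on Poisson counts simulated from the class sums. These hold no spread between cells or animal pools, so the trial covers counting error only. The other steps were not simulated.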

Additional observations from a re-analysis of the deposited data

How the results depend on the processing

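No paired analysis was possible because there was 1 library per age and the labels give no replicate numbers. Under the other settings tried the count of 25 cases below free RNA in follicular-like cells stayed between 24 and 28, that of 27 in endothelial-like cells between 26 and 28, that of dendritic-like above macrophage-like at 28, and that of 18 for B-like above macrophage-like between 14 and 21. The count of 1 level higher in the library labelled day 30 became 0 with at most 10000 UMIs per cell, 0 with that limit and SCTransform integration, 0 with cells thinned to 1000 UMIs, 2 with doublets kept and 16 when the libraries labelled day 20 and day 10 were compared instead. For the latter pair the log2 ratio of the summed members was 0.072 in follicular-like and 2.92 in macrophage-like cells. It was 0.049 in dendritic-like, 0.75 in B-like and 0.010 in endothelial-like cells. The endothelial-like ratio, at 1.01 (0.875 to 1.16), differed from 1 by less than counting error. The other classes had the opposite sign to day 30 against day 5, and so the same sign as the turned ratio, day 5 over day 30. The log2 ratio of B-like to macrophage-like cells in the library labelled day 20 turned from 0.11 to -0.18 with at most 10000 UMIs, -0.28 with integration, -0.057 with at most 5% mitochondrial UMIs, -0.21 with cells weighted equally and -0.11 with thinned cells. The cause was not tested. Of the other values, 85 moved by less than counting error and 103 by more with the same sign. The largest of these moves was that of the summed members in endothelial-like cells over free RNA in the library labelled day 10, from a log2 ratio of -4.23 to -3.21 with doublets kept. Weighting cells equally gave no interval, so the comparison of the libraries labelled day 30 and day 5 was not run under it. The log2 of Cd74 UMIs per chain UMI in follicular-like cells over free RNA was added after seeing the data. Over 12 settings it stayed between 2.51 and 2.81, 2.81 and 3.27, 3.01 and 3.40, and 3.07 and 3.51 in the libraries labelled day 5, 10, 20 and 30. Depth limits Ciita in follicular-like and endothelial-like cells and in free RNA, where no library held more than 16 UMIs.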

Other observations

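Among the clusters left without a class name, cluster 31, led by H2-Aa, H2-Eb1, H2-Ab1, Cd74 and Mgl2 and with Cd209a among its 10 leading genes, held 132, 63, 26 and 5 cells and stood at 66412, 51805 and 63719 CPM of the 7 genes in the libraries labelled day 5, 10 and 20. Its H2-DMb1 level was 1067, 1107 and 1269 CPM. The summed level overlapped the range of dendritic-like cells, and the H2-DMb1 level lay above all 4 dendritic-like values. Cluster 0, led by Tg with endothelial genes beside it, held 469 of its 515 cells in the library labelled day 5, and stood at 1504 CPM there. Cd74 gave 978 CPM, H2-Aa 121 CPM and H2-Eb1 197 CPM of that, so that the chains were higher than in the named follicular-like cells of the same library. Cluster 6, a shallow epithelial cluster of 960 cells with a median of 921 UMIs, stood at 1422, 927, 651 and 425 CPM, with Cd74 at 1093, 724, 553 and 342 CPM.

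In classes outside the 5 compared, Cd74 stood at 281, 261, 379 and 91.5 CPM in C cell-like cells, 337, 15.8, 320 and 199 CPM in parathyroid-like cells and 139, 27.5, 17.6 and 7.49 CPM in fibroblast-like cells. Monocyte-like cells held 2456, 1046, 2607 and 340 CPM in 270, 88, 14 and 132 cells, and the value labelled day 20 rests on 170 UMIs of those 14 cells (2230 to 3030 CPM).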
